A study of Mus musculus with 27 samples.

Results

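The neural crest and glial genes described here are Sox10, Foxd3, Tfap2a, Tfap2b, Erbb3, Ngfr and Ets1, 7 genes chosen by symbol, and all 7 were found among the 23279 genes of the expression table. Messenger RNA was sequenced from mouse embryonic tissues and from limb bud-like tissue (ES-LB) grown from mouse embryonic stem cells. From embryos of the Slc:ICR stock came branchial arch (BA), cardiac tissue (Ca), tail bud (TB), forelimb bud (FLB) and hindlimb bud (HLB) at E10.5, and early FLB and early HLB. Both early groups are labelled E10.0, although the study's text places the early FLB at a younger stage than the early HLB. The study's methods take the embryonic tissue from 3 embryos and name no sorting step for it. ES-FLB and ES-HLB came from 1 engineered line, EB5 carrying Hand2::GFP +/-, as aggregates on day 9 of culture, from which GFP-positive mesenchyme was sorted before RNA was taken. Both cultures had BMP4 and Matrigel, later LDN193189, a BMP inhibitor, and Wnt3, with hydrocortisone and methylcellulose in the medium. The forelimb culture also had retinoic acid, and the hindlimb culture an antagonist of it. Every group held 3 libraries, but replicate 2 of E10.5 HLB had no values over several chromosomes, Ets1 included, and was left out, so that 26 libraries remained. Embryos and cultures differed in stock, in sorting and in origin at once, and these differences cannot be told apart. In bulk samples, fewer cells of a type and less RNA per cell cannot be told apart either.

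Neural crest cells arise at the border of the neural tube and the surface ectoderm, leave it as migrating mesenchyme, and give rise to sensory and autonomic neurons, glia, melanocytes and much of the skeleton of the face. The AP-2 factors Tfap2a and Tfap2b act at that border and also in surface ectoderm, Foxd3 and Ets1 in premigratory crest, and Sox10 in migrating crest and later in glia and melanoblasts. Erbb3 is the neuregulin receptor of Schwann cell precursors, and Ngfr (p75), the low-affinity neurotrophin receptor, marks migrating crest on its surface. Several of these genes are also used outside the lineage: Tfap2a in surface ectoderm and limb mesenchyme, Erbb3 in epithelia and the cushions of the heart, and Ets1 in endothelium. In the limb the crest gives glia and melanocytes but not the skeleton.

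In the GENCODE vM21 annotation (GRCm38) the 7 protein-coding genes lie at chr15:79154908-79165240 (Sox10, minus strand), chr4:99656299-99658622 (Foxd3, plus), chr13:40715302-40738376 (Tfap2a, minus), chr1:19208914-19238576 (Tfap2b, plus), chr10:128567523-128589652 (Erbb3, minus), chr11:95568818-95587735 (Ngfr, minus) and chr9:32636221-32757820 (Ets1, plus). Tfap2a and Ets1 overlap annotated antisense genes. The libraries were made with a stranded kit, but whether the counting used strand is not given in the sources used here, so reads of these antisense genes cannot be told apart from those of Tfap2a and Ets1.

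RefSeq promoter sequences (GRCm38.p6) were held for 4 of the 7 genes, Foxd3, Tfap2a, Tfap2b and Ngfr. Those of Foxd3, Tfap2b and Ngfr are shown because these genes changed with stage in the limb buds, as described further on. Each is the stretch before the RefSeq start, 5′ to 3′ on the strand of the gene, without bases that a GENCODE exon covers, and capitals mark a match to a searched motif. The Tfap2b stretch and those searched for Tfap2a lie inside the GENCODE spans given above, downstream of the outermost annotated start.

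Foxd3, chr4:99656049-99656298, plus strand: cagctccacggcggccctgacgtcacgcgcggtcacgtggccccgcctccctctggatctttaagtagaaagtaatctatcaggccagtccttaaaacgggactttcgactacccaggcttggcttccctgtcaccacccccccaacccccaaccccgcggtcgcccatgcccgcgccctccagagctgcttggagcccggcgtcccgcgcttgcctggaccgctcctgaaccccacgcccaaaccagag

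Tfap2b, chr1:19211804-19212053, plus strand: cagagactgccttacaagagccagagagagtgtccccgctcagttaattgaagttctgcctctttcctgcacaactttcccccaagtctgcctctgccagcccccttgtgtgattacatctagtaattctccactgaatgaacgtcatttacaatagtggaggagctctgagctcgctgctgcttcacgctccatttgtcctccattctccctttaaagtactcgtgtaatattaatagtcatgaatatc

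Ngfr, chr11:95587736-95587948, minus strand: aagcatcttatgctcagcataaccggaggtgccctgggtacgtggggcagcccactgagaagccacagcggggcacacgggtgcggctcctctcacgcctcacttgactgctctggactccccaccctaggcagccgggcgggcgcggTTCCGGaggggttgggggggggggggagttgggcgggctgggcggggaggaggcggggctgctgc

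Motifs were searched on both strands over the 250 bases before each start. The letters were ACAAAG and ACAATG for SOX factors, GCCNNNGGC for AP-2 factors, CCGGAA for ETS factors and GTAAACA for forkhead factors. The only match in the promoters of these 4 genes was 1 CCGGAA on the reverse strand of Ngfr, starting 102 bases before the start. Of 32851 promoters of the same length, 12.03% held CCGGAA, 16.5% ACAAAG, 10.7% ACAATG, 13.7% GCCNNNGGC and 3.17% GTAAACA. A match describes these letters alone.

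Defining genes of Ca, TB and BA were in place. The heart genes Myh6, Myl2, Nkx2-5 and Tnnt2 summed to between 7907 and 9485 CPM (the reads of a gene per 1000000 reads of its library) in Ca and to at most 7.81 CPM in BA. The brachyury gene T stood at 129 ± 8.07 CPM (SD, n = 3) in TB, and the arch genes of the Dlx, Barx1, Gsc, Hand1, Lhx6 and Lhx8 list summed to between 711 and 733 CPM in BA. Libraries held between 5543754 and 22142306 reads as estimated from the smallest steps in the values, the 6 early limb bud libraries being the deepest, so that 3 reads, taken here as the floor, are worth 0.148 to 0.543 CPM. Below, a level is a CPM value after scaling between libraries, a difference is a log2 fold change on log2(CPM + 0.5), which understates changes of low genes, and a gene is called, and said to rise or fall, when limma's adjusted p over all 14438 genes tested was under 0.05 and the difference at least 2-fold. The labels give separate embryonic samples or cultures no further than a number, so p-values measure the spread between these libraries, which may be technical.

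**Figure D1:**
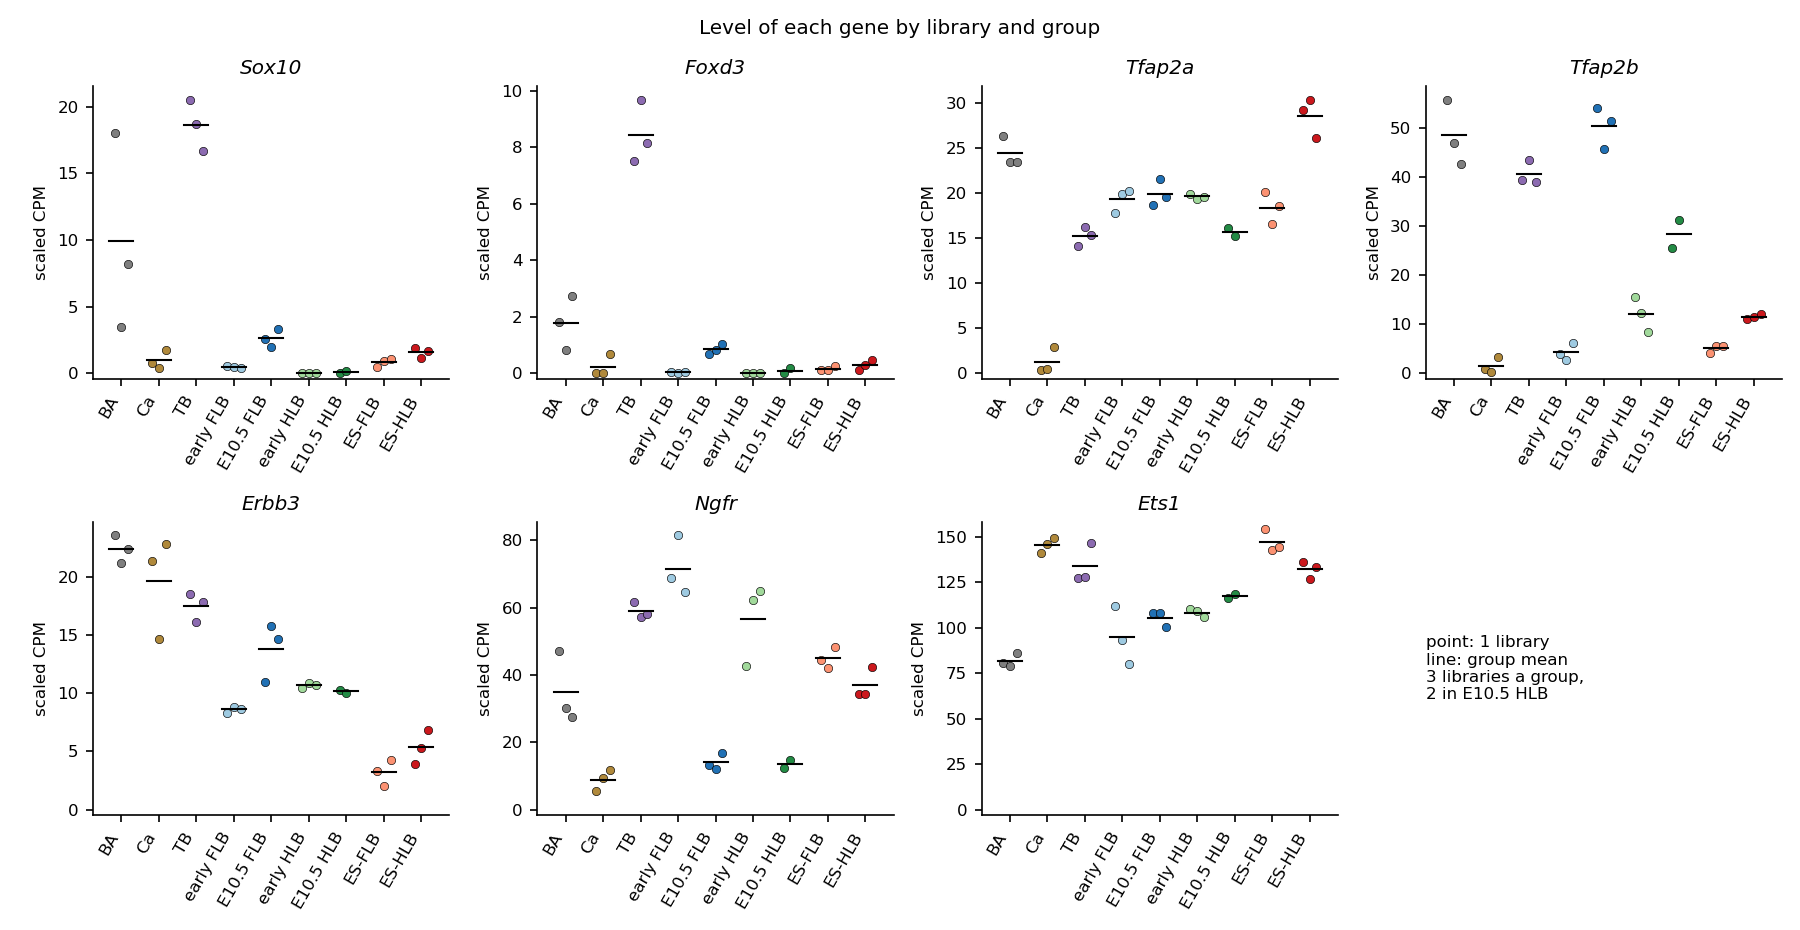
Level of each of the 7 genes in scaled CPM (vertical axes, linear) in 26 libraries of 9 groups; points are libraries and lines are group means. Sox10 and Foxd3 were highest in TB, Tfap2a and Tfap2b lowest in Ca, Ngfr low in the E10.5 limb buds, and Ets1 at 79.2 CPM or above in every library.

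Sox10, the SRY-box factor of migrating crest and glia, was a gene of the tail bud and the branchial arch. It stood at 20.5, 18.7 and 16.7 CPM in TB and at 18.1, 3.50 and 8.17 CPM in BA. The ranges of these groups overlapped, and both lay above every limb bud library. In E10.5 FLB it stood at 2.57, 1.99 and 3.31 CPM, in Ca at 0.783, 0.423 and 1.78 CPM, and in early FLB at 0.511, 0.449 and 0.413 CPM. Hindlimb buds held almost none: 0 in all 3 early HLB libraries, and 0 and 0.176 CPM, 1 read in all, in the E10.5 HLB libraries. A count of 0 allows up to 3 reads in a library, on average 0.156 CPM in early HLB, which covers counting error only. ES-HLB stood at 1.92, 1.14 and 1.68 CPM and ES-FLB at 0.487, 0.909 and 1.10 CPM, a range that overlapped those of Ca and early FLB.

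The BA libraries differed widely in Sox10, and markers of neurons differed with it. The 14 genes of the crest-derived and sensory neuron list, which hold Tubb3, Stmn2 and Isl2, summed to 221, 50.4 and 121 CPM in BA replicates 1, 2 and 3, the order of Sox10 in the same libraries. The 16 genes of the glial list summed to 119, 77.8 and 88.4 CPM in these libraries, and the 11 arch genes to 733, 711 and 723 CPM. Both lists had the same order, so the order does not set the neuron list apart. The part of these markers in the Sox10 level of BA was not tested.

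Foxd3, a forkhead factor of premigratory crest and of pluripotent cells, followed Sox10 at lower CPM. It stood at 7.52, 9.69 and 8.16 CPM in TB, at 1.81, 0.816 and 2.72 CPM in BA, and at 0.684, 0.828 and 1.05 CPM in E10.5 FLB. TB lay above all other groups without overlap, while BA and E10.5 FLB overlapped. Genes were tested only at 1 CPM or above in 3 libraries, which Foxd3 reached mainly through TB and BA. In no limb bud or ES-derived group did Foxd3 reach 1 CPM in 3 libraries. Early FLB held 2 reads of Foxd3 in 3 libraries, E10.5 HLB 1 read in 2 libraries and early HLB none. ES-FLB held 4 reads, with every library at or under the floor, and ES-HLB 7 reads, with 2 of 3 libraries there. The ratio of Foxd3 to Sox10 within a library, which is not corrected for length, was 0.366 to 0.519 in TB, 0.333 at most in BA and 0.267 to 0.417 in E10.5 FLB; the range of TB lay above that of BA and overlapped that of E10.5 FLB.

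BA was compared with Ca, TB and E10.5 FLB. BA against Ca called 5 of 7 genes, all higher in BA, where 26.1% of all genes tested were called. Tfap2b was higher by 4.92 ± 0.38 (log2, SE; adjusted p = 1.12e-09), Tfap2a by 4.15 ± 0.31 (adjusted p = 5.23e-10), Sox10 by 2.63 ± 0.36, Ngfr by 1.94 ± 0.23 and Foxd3 by 1.68 ± 0.29. Erbb3 was not called, at 0.21 ± 0.18 (adjusted p = 0.296), and Ets1 was lower in BA by less than 2-fold (-0.83 ± 0.07, adjusted p = 2.05e-11). BA against TB called 2 genes, both lower in BA, where 9.59% of all genes were called. Foxd3 differed by -2.06 ± 0.29 (adjusted p = 6.92e-07) and Sox10 by -1.14 ± 0.36 (adjusted p = 0.0105). Without BA replicate 2 the Sox10 difference was -0.59 with adjusted p = 0.135, and in a fit of these 2 groups alone its adjusted p was 0.218. Without BA replicate 1, Ngfr was called as well, at -1.02. BA against E10.5 FLB called Sox10 (1.49 ± 0.36, adjusted p = 0.00292) and Ngfr (1.26 ± 0.23, adjusted p = 0.000472), both higher in BA, where 5.46% of all genes were called. Tfap2b differed by -0.06 and Ets1 by -0.37 ± 0.07 (adjusted p = 0.000375), under 2-fold. Without BA replicate 1 the Sox10 difference was 0.94, under 2-fold, in a fit of these 2 groups alone its adjusted p was 0.20, and without BA replicate 2 Foxd3 was called as well, at 1.02.

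The other genes of the crest, its derivatives and these pathways are given by list. Those named beside a count of calls were chosen after their values were seen. Of all genes, 5.46% were called between BA and E10.5 FLB and 9.59% between BA and TB. Of 14 neuron genes, 12 were higher in BA than in E10.5 FLB and none lower, with a median of 1.84 against 0.00 over all genes, and Neurod1, Isl2 and Tubb3, a proneural factor, a homeobox factor and a neuronal tubulin, differed by 2.96, 2.34 and 1.90. Of the 14 glial genes tested of 16 listed, 3 were higher, among them Fabp7, a lipid-binding protein of glial precursors (9.60 ± 7.24 against 0.286 ± 0.356 CPM), and 1 was lower. Of the 16 other crest regulators none was called between BA and E10.5 FLB, and between BA and TB 6 were higher and 3 lower. The 3 lower ones were Zic1, Pax3 and Pax7, factors of the neural plate border and of somites, at -6.01, -3.18 and -2.51. The 8 neural tube genes, Sox2 and Pax6 among them, summed to between 195 and 209 CPM in TB and to between 14.6 and 21.9 CPM in BA, and all 8 were lower in BA. Their part in the Sox10 and Foxd3 levels of TB was not tested.

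Tfap2a, an AP-2 factor of surface ectoderm and crest, varied little outside the heart. Its group means ran from 15.2 ± 1.04 CPM (SD, n = 3) in TB to 28.5 ± 2.18 CPM in ES-HLB, with BA at 24.4 ± 1.65 and E10.5 FLB at 19.9 ± 1.48 CPM. Ca stood apart at 0.391, 0.423 and 2.87 CPM. Tfap2b, its paralogue, varied far more. It stood at 54.1, 45.7 and 51.4 CPM in E10.5 FLB, at 55.8, 46.9 and 42.7 CPM in BA and at 39.3, 43.4 and 39.0 CPM in TB. These 3 groups overlapped as neighbours in order of level. Early FLB stood at 3.83, 2.75 and 6.201 CPM, ES-FLB at 4.14, 5.45 and 5.61 CPM and Ca at 0.913, 0.282 and 3.28 CPM. In hindlimb buds the levels were 15.4, 12.2 and 8.50 CPM early and 25.5 and 31.2 CPM at E10.5, and ES-HLB stood at 11.1, 11.4 and 11.98 CPM.

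In the heart, replicate 3 was the highest of 3 for all 7 genes. The 14 surface ectoderm and epithelium genes summed to 252 CPM in that library and to 188 and 196 CPM in the others, and the 16 other crest regulators to 520 CPM against 452 and 409 CPM. The glial list summed to 180 CPM there and to 200 and 176 CPM in the others. The part of these genes in the heart values was not tested. Since the spread of Ca entered the shared error of Tfap2a and Tfap2b, every comparison without Ca was also fitted without its libraries.

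The ratio of Tfap2b to Tfap2a within a library separated the limb bud groups by stage. The ratio, not corrected for length, was 0.221 ± 0.085 (SD, n = 3) in early FLB and 2.55 ± 0.39 in E10.5 FLB. In the hindlimb it was 0.615 ± 0.172 early and 1.82 ± 0.34 (n = 2) at E10.5. ES-FLB, at 0.280 ± 0.065, and ES-HLB, at 0.405 ± 0.046, lay below every E10.5 limb bud library, and BA and TB, at 1.98 ± 0.15 and 2.67 ± 0.12, near the E10.5 limb buds. ES-FLB overlapped early FLB, and ES-HLB reached 0.459 where early HLB began at 0.435. Per kilobase of exon the ratio was 0.0998 to 0.222 in early FLB and 1.53 to 2.09 in E10.5 FLB. With 3 libraries against 3, an exact permutation test could not go below 0.10, so the ratio is given without a test.

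**Figure D2:**
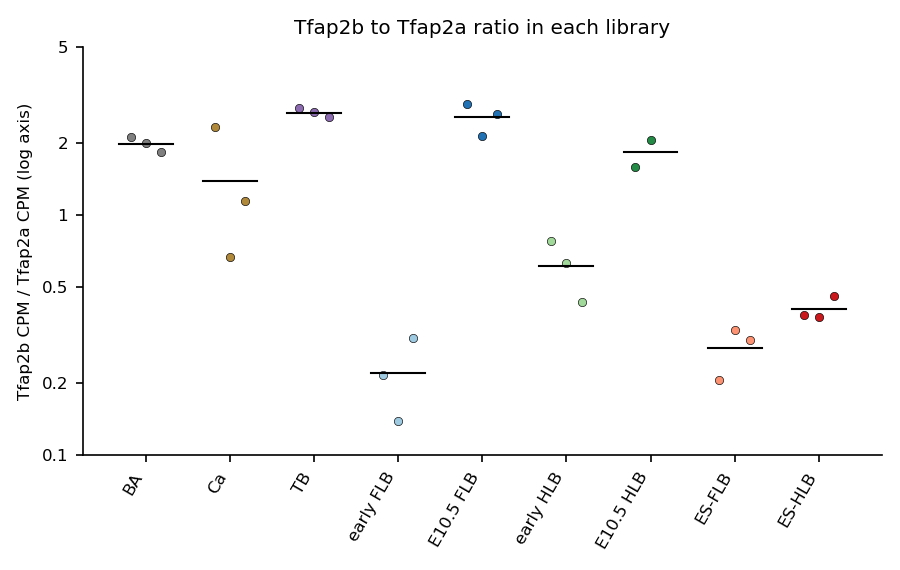
Ratio of Tfap2b CPM to Tfap2a CPM (vertical axis, logarithmic) in 26 libraries of 9 groups; points are libraries and lines are means. The early and ES-derived limb buds reach 0.777 at most and the E10.5 limb buds 1.58 at least.

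From the early to the E10.5 limb bud Tfap2b rose and Ngfr fell in forelimb and hindlimb, and Sox10 and Foxd3 rose in the forelimb. The early limb bud libraries held 19642242 to 22142306 estimated reads and the E10.5 limb bud libraries 5543754 to 5908845. Stage and this difference between the sets of libraries cannot be told apart, here or in the ratio of Tfap2b to Tfap2a. E10.5 FLB against early FLB called 4 of 7 genes, where 11.9% of all genes tested were called. Tfap2b rose by 3.48 ± 0.38 (log2, SE; adjusted p = 3.18e-07), an 11.8-fold ratio of mean CPM. Sox10 rose by 1.68 ± 0.36 (adjusted p = 0.000218), with 46 reads against 27 in deeper libraries, a ratio of 5.70 at equal depth (95% counting interval 3.47 to 9.53). Foxd3 rose by 1.33 ± 0.29 (adjusted p = 0.00023), with 15 reads against 2, a ratio of 25.1 (5.84 to 226), and fell short of 2-fold at 0.84 with a pseudocount of 1. In a fit of the forelimb stages alone, Foxd3 did not pass the filter on low values and was not tested. Ngfr fell by 2.31 ± 0.23 on the log2 scale (adjusted p = 6.73e-08). Each of the 4 changes held in all 3 E10.5 libraries against all 3 early ones, without overlap.

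In the hindlimb 2 of 7 genes were called, where 3.73% of all genes tested were called. Ngfr fell by 2.00 ± 0.26 on the log2 scale (adjusted p = 1.02e-05), from 42.8, 62.2 and 65.0 CPM to 12.5 and 14.8 CPM. Tfap2b rose by 1.23 ± 0.43 (adjusted p = 0.0384). That call was lost without early HLB replicate 2 (adjusted p = 0.0724) or replicate 3 (0.132), without E10.5 HLB replicate 1 (0.0927) or replicate 3 (0.187), with a replicate block (0.0583) and with a pseudocount of 0.1 (0.098), at differences of 1.01 to 1.37. Leaving out an E10.5 HLB library leaves 1 in that group, whose spread is then assumed to be that of the other groups. Fitted without Ca, the adjusted p of Tfap2b was 0.000548. Sox10 and Foxd3 were at or under the floor in every library of both hindlimb stages, so no fold between these stages is given.

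The difference between the stage changes was then tested itself, a contrast added after the values were seen. The study gives early FLB a younger age than early HLB, so the forelimb stages lie further apart in time. Limb type and time between stages cannot be told apart in this contrast. The contrast called 1 gene, Tfap2b, at 2.25 ± 0.57 (adjusted p = 0.00959), where 4.9% of all genes were called. Sox10 differed by 1.47 ± 0.53 (adjusted p = 0.0526) and Foxd3 by 1.12 ± 0.44 (adjusted p = 0.0706). Without the Ca libraries in the fit both were called, with adjusted p = 0.0306 and 0.0380, and without E10.5 FLB replicate 2 Sox10 was called (adjusted p = 0.0474). The change of Ngfr differed between limbs by -0.31 ± 0.34 (adjusted p = 0.576), with a 95% interval from -0.98 to 0.36.

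Other genes of these pathways moved with stage too, where 11.9% of all genes were called in the forelimb and 3.73% in the hindlimb. Of the 10 neurotrophins and their receptors, 3 rose in the forelimb and none fell, among them the ligands Ntf3 (from 1.71 ± 0.12 to 14.6 ± 2.63 CPM) and Bdnf (from 0.966 ± 0.126 to 6.13 ± 0.32 CPM), by 2.75 and 2.18. In the hindlimb Ntf3 alone was called, at 1.12. Limb type and time between stages cannot be told apart in the difference between the limbs. That difference was called for Ntf3 at 1.63 (adjusted p = 3.2e-06) and Bdnf at 1.44. Ngfr, the low-affinity receptor of these ligands, fell in forelimb and hindlimb, and the difference between its changes was not called (-0.31, adjusted p = 0.576). Of the glial genes 2 rose in the forelimb, Cdh19, a cadherin of Schwann cell precursors (0 in all early libraries, 0.977 ± 0.727 CPM at E10.5), and Cnp, a myelin enzyme, and none was called in the hindlimb. Tfap2c, the third AP-2 factor measured, fell by 1.45 on the log2 scale in the forelimb and fell by 1.10 in the hindlimb, from 56.6 ± 11.4 to 20.3 ± 2.92 CPM and from 54.0 ± 3.91 to 24.8 ± 1.97 CPM. Of 14 surface ectoderm genes, 3 rose in the forelimb, the basal keratins Krt5 and Krt14 and the epidermal factor Grhl3, and 4 fell, Krt8, Krt18, Krt19 and Cldn6; none was called in the hindlimb. Their part in the rise of Tfap2b was not tested.

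Forelimb and hindlimb buds differed in few of the 7 genes. Early HLB against early FLB called Tfap2b alone, higher in HLB by 1.43 ± 0.38 (adjusted p = 0.013), where 2.85% of all genes were called. Its adjusted p was 0.0688 without early FLB replicate 2 and 0.0695 without early HLB replicate 1, and 6.1e-05 in the fit without Ca. Sox10 had 27 reads in early FLB and none in early HLB, at least 2.94-fold higher in early FLB against a floor of 3 reads per library, and was not called (adjusted p = 0.0687), although with a pseudocount of 0.1 it was (-2.48, adjusted p = 0.00019). Limb type and the younger age that the study gives early FLB cannot be told apart here. E10.5 HLB against E10.5 FLB called 2 genes, both lower in HLB, where 2.93% of all genes were called. Sox10 differed by -2.40 ± 0.40 (adjusted p = 0.000114), 46 reads in FLB against 1 in HLB, a ratio of 29.2 (95% counting interval 4.99 to 1180). Foxd3 differed by -1.21 ± 0.33 (adjusted p = 0.00818), 15 reads against 1, a ratio of 9.54 (1.47 to 401). This call was lost without E10.5 HLB replicate 1 (-0.99), which leaves 1 library in that group, or with a pseudocount of 1. Fitted with the E10.5 limb buds alone, Foxd3 did not pass the filter on low values and was not tested. Cdh19 and Ednrb, the endothelin receptor of crest derivatives, were the glial genes called lower in E10.5 HLB, at -1.19 and -1.26. Ednrb was also lower in early HLB than in early FLB, at -1.34, the only glial gene called there.

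Erbb3 and Ngfr, the receptors of the set, did not share a pattern. Erbb3 stood at 23.6, 21.2 and 22.4 CPM in BA, at 21.4, 14.7 and 22.8 CPM in Ca and at 18.5, 16.1 and 17.8 CPM in TB, and these tissues overlapped. E10.5 FLB stood at 10.9, 15.7 and 14.6 CPM, below BA and TB but overlapping the lowest Ca library, and the other 3 embryonic limb bud groups between 8.33 and 10.9 CPM. Ca thus held Erbb3 at the level of BA with Sox10 near 1 CPM. Of the other ErbB receptors, Erbb4 and Erbb2, the signalling partners of Erbb3, were lower in BA than in Ca, at -5.39 and -1.09 (Erbb4 32.8 ± 1.31 against 0.310 ± 0.180 CPM). The neuregulin Nrg1 stood at 4.89 ± 0.59 CPM in Ca and 2.32 ± 0.31 CPM in BA. Ngfr stood highest in early FLB, at 68.7, 81.5 and 64.5 CPM, followed by TB and early HLB, and lowest in Ca, at 5.61, 9.30 and 11.7 CPM.

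Ets1, an ETS factor of crest, endothelium and mesenchyme, moved least. Its group means ran from 81.9 ± 3.67 CPM in BA to 147 ± 6.22 CPM in ES-FLB, and it was not called in any of the 15 comparisons, since no difference reached 2-fold. Several of these differences passed the adjusted p alone, among them 0.64 ± 0.07 in ES-FLB against early FLB (adjusted p = 4.01e-09). Endothelial markers moved the other way there: the 11 genes of the list summed to between 418 and 439 CPM in early FLB and to between 38.4 and 44.8 CPM in ES-FLB, and all 11 fell. Of the other 10 ETS factors, 5 fell in ES-FLB against early FLB and 1 rose, where 28.5% of all genes were called. Those that fell were Erg and Etv2, of endothelium and its precursors (-3.31 and -3.14), Etv4 and Etv5, targets of FGF signalling (-2.36 and -2.04), and Ets2 (-1.37).

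In ES-FLB, Erbb3 was lower than in early FLB and in E10.5 FLB, and Tfap2b, Sox10 and Foxd3 were lower than in E10.5 FLB. The comparisons with early and with E10.5 limb buds share the ES-derived libraries. ES-FLB against early FLB called 1 of 7 genes, Erbb3, where 28.5% of all genes tested were called. Erbb3 fell by 1.34 ± 0.18 (log2, SE; adjusted p = 8.12e-08), from 8.33, 8.84 and 8.68 CPM to 3.28, 2.08 and 4.27 CPM. Tfap2a differed by -0.07 ± 0.31, Tfap2b by 0.28 ± 0.38 (95% interval -0.47 to 1.03) and Sox10 by 0.45 ± 0.36 (-0.25 to 1.15). Ngfr differed by -0.66 ± 0.23 in ES-FLB against early FLB (adjusted p = 0.0139), under 2-fold. ES-FLB against E10.5 FLB called 5 of 7 genes, where 18.7% of all genes were called. Tfap2b fell by 3.20 ± 0.38 (adjusted p = 6.72e-07), Erbb3 fell by 1.97 ± 0.18, Sox10 fell by 1.24 ± 0.36 (adjusted p = 0.00344) and Foxd3 fell by 1.02 ± 0.29 (adjusted p = 0.00282), while Ngfr rose by 1.65 ± 0.23 (adjusted p = 3.83e-06). Tfap2a, at -0.12 (adjusted p = 0.759), and Ets1, at 0.48 (adjusted p = 1.43e-06), were not called. The Foxd3 difference fell under 2-fold without E10.5 FLB replicate 3 (-0.92) or ES-FLB replicate 1 (-0.97) or 2 (-0.98), and with a pseudocount of 1 both Foxd3 (-0.67) and Sox10 (-0.98) did. With only ES-FLB and E10.5 FLB fitted, Foxd3 did not pass the filter on low values and was not tested.

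In ES-HLB, Sox10 was higher than in early HLB and in E10.5 HLB, and Ngfr was higher than in E10.5 HLB. ES-HLB against early HLB called 1 of 7 genes, where 25% of all genes tested were called. Sox10 rose by 2.04 ± 0.36 (adjusted p = 1.21e-05), from 0 reads in all 3 early HLB libraries to 37 reads, at least 10.1-fold higher against a floor of 3 reads per library. Erbb3 differed by -0.96 ± 0.18 (adjusted p = 2.01e-05), just under 2-fold, and was called without ES-HLB replicate 3 (-1.14) or with a pseudocount of 0.1 (-1.02). Ngfr differed by -0.59 ± 0.23 in ES-HLB against early HLB (adjusted p = 0.0263), under 2-fold. ES-HLB against E10.5 HLB called 3 genes, where 20.6% of all genes were called. Sox10 rose by 1.82 ± 0.40 (adjusted p = 0.000248), 37 reads against 1, a ratio of 17.9 (95% counting interval 3.01 to 724). Ngfr rose by 1.41 ± 0.26 (adjusted p = 8.41e-05) and Tfap2b fell by 1.26 ± 0.43 (adjusted p = 0.0147), a call lost without E10.5 HLB replicate 3 (-1.12, adjusted p = 0.0909), which leaves 1 library in that group. Tfap2a differed by 0.85 (adjusted p = 0.0388), under 2-fold. Without ES-HLB replicate 3, Erbb3 was called as well, at -1.07. In ES-HLB the neural tube genes summed to between 24.4 and 30.4 CPM, against 0.543 to 0.927 CPM in early HLB, and Sox2, a neural and pluripotency factor, made up most of that sum at 23.3 CPM. The part of such genes in the Sox10 level was not tested.

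Between the cultures, ES-HLB against ES-FLB called Tfap2b alone, higher in ES-HLB by 1.12 ± 0.38 (adjusted p = 0.0479), where 4.42% of all genes were called. Leaving out any of the 6 libraries, ES-FLB or ES-HLB replicate 1, 2 or 3, ended the call, with adjusted p from 0.0807 to 0.145, although the libraries of the groups did not overlap. Fitted without Ca, its adjusted p was 0.000686. The difference between hindlimb and forelimb was then compared between cultures and early limb buds, a contrast that called Sox10 at 1.59 ± 0.50 (adjusted p = 0.0257), where 6.32% of all genes were called. Sox10 had been lower in early HLB than in early FLB in every library, and in the cultures every ES-HLB library was above every ES-FLB library, though not past the test (0.65 ± 0.36, adjusted p = 0.225). The call was lost with a pseudocount of 1 (1.04, adjusted p = 0.119) and without early FLB replicate 1, ES-FLB replicate 1 or ES-HLB replicate 1 or 3, with adjusted p from 0.0532 to 0.0744 and differences of 1.39 to 1.55. Ets1 passed the adjusted p alone there, at -0.36 ± 0.10 (adjusted p = 0.0137).

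**Figure D3:**
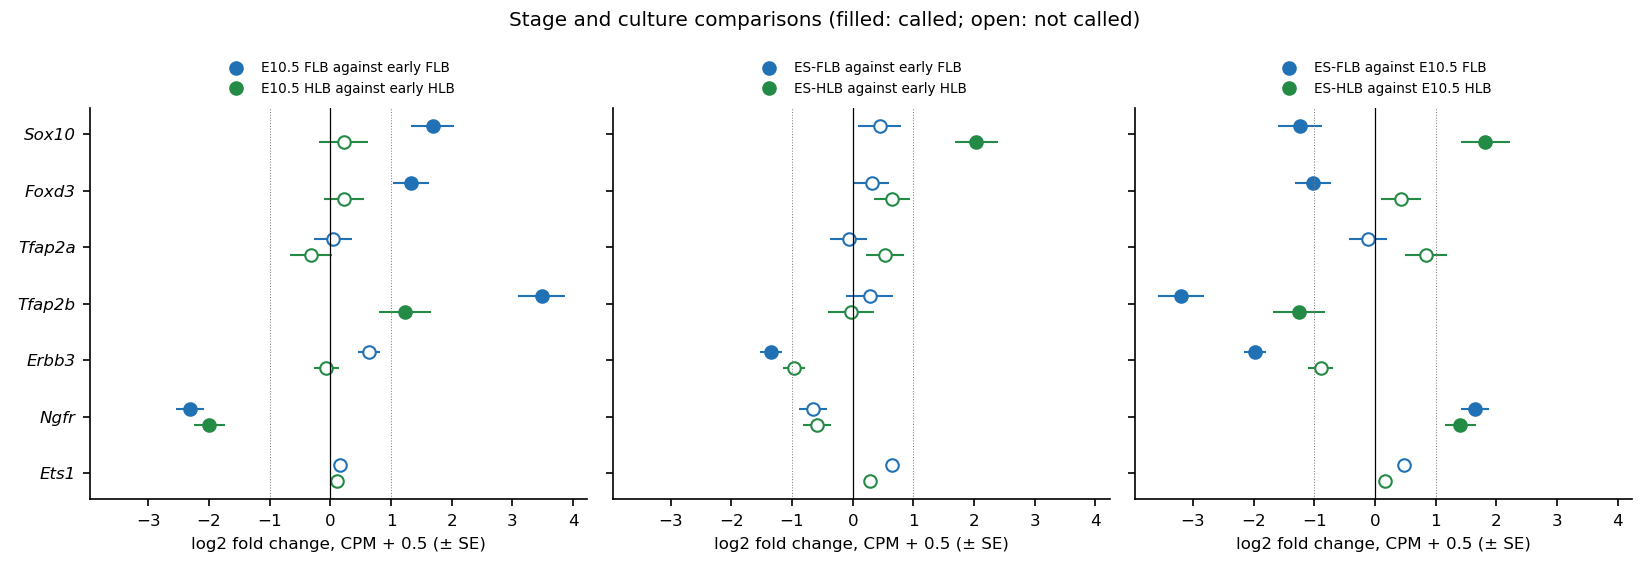
Log2 fold change on log2(CPM + 0.5) with its SE (horizontal axes) of the 7 genes for E10.5 against early limb buds (left), ES-derived against early (middle) and ES-derived against E10.5 (right), with forelimb in blue and hindlimb in green; filled points are called. The Tfap2b points lie at 3.48 and 1.23 for stage and at -3.20 and -1.26 for ES-derived against E10.5, and near 0 for ES-derived against early.

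Against the branchial arch, the mean of the ES-derived groups was lower in 4 of 7 genes, where 16.4% of all genes were called. Tfap2b differed by -2.58 ± 0.33, Sox10 by -2.40 ± 0.31, Erbb3 by -2.33 ± 0.16 and Foxd3 by -1.57 ± 0.25, with adjusted p of 2.19e-06 or smaller. Tfap2a, at -0.09 ± 0.27 (95% interval -0.62 to 0.44), and Ngfr, at 0.25 ± 0.20 (-0.14 to 0.64), were not called, and Ets1 was higher by 0.76 ± 0.06 (adjusted p = 7.95e-12), under 2-fold. All 11 arch genes were lower in the ES-derived groups, with a median of -3.34.

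Ligands and receptors that work beside Ngfr and Erbb3 were read against all genes, of which 2470 were called higher and 1650 lower in ES-FLB against early FLB (28.5% in all), and 2319 higher and 1287 lower in ES-HLB against early HLB (25% in all). Of the 10 neurotrophins and receptors, 4 were called higher and 1 lower in ES-FLB against early FLB, and 6 higher and 1 lower in ES-HLB against early HLB. Bdnf stood at 34.7 ± 4.74 CPM in the forelimb culture and 38.1 ± 3.97 CPM in the hindlimb culture, against 0.966 ± 0.126 and 2.40 ± 0.13 CPM in the early limb buds. Ntrk3, the high-affinity receptor of neurotrophin 3, stood at 27.6 ± 5.57 CPM in ES-FLB and 1.09 ± 0.30 CPM in early FLB, a rise of 4.14, and the gene called lower in both was Ntf5, at -1.74 and -1.44. Of the neuregulins and other ErbB receptors, Egfr and Nrg1 rose against early limb buds in forelimb (1.62 and 2.62) and hindlimb (1.40 and 1.78) and none of the 5 tested fell. Erbb2, the partner of Erbb3, stood at 68.1 ± 6.71 CPM in ES-FLB and 56.3 ± 1.78 CPM in early FLB and was not called.

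Of 14 glial genes tested, 4 rose and 1 fell in ES-FLB against early FLB (median 0.80 against 0.02 over all genes), and 6 rose and 1 fell in ES-HLB against early HLB (median 0.91 against 0.03); the share called in the forelimb, 5 of 14, is near the 28.5% of all genes. Egr2, a zinc-finger factor of hindbrain and myelinating glia, reached 13.8 ± 3.11 CPM in the forelimb culture and 9.74 ± 0.81 CPM in the hindlimb culture, and 0.315 CPM or below on average in all 7 embryonic groups. Gfra3, a receptor for the ligand artemin, stood at 13.5 ± 2.25 and 30.6 ± 1.78 CPM, against 2.70 ± 0.20 and 3.04 ± 0.64 CPM in early FLB and early HLB. L1cam, an adhesion molecule of axons and glia, was the gene that was called lower in both, at -1.10 and -1.24. Cdh19 stood at 0.246 ± 0.209 CPM in the forelimb culture and 0.245 ± 0.240 CPM in the hindlimb culture, and at 0 in early FLB and early HLB. Of 8 melanoblast genes listed, 3 passed the filter on low values. The list summed to between 63.7 and 69.6 CPM in Ca, where 3 genes reached a mean of 1 CPM. In ES-FLB it summed to between 20.6 and 24.9 CPM, where 2 genes did. Tyrp1 was at 0 in all groups, and Dct, an enzyme of pigment synthesis, had its highest group mean in TB at 0.918 CPM. No melanoblast gene was called between ES-derived and embryonic limb buds or between the stages.

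**Figure D4:**
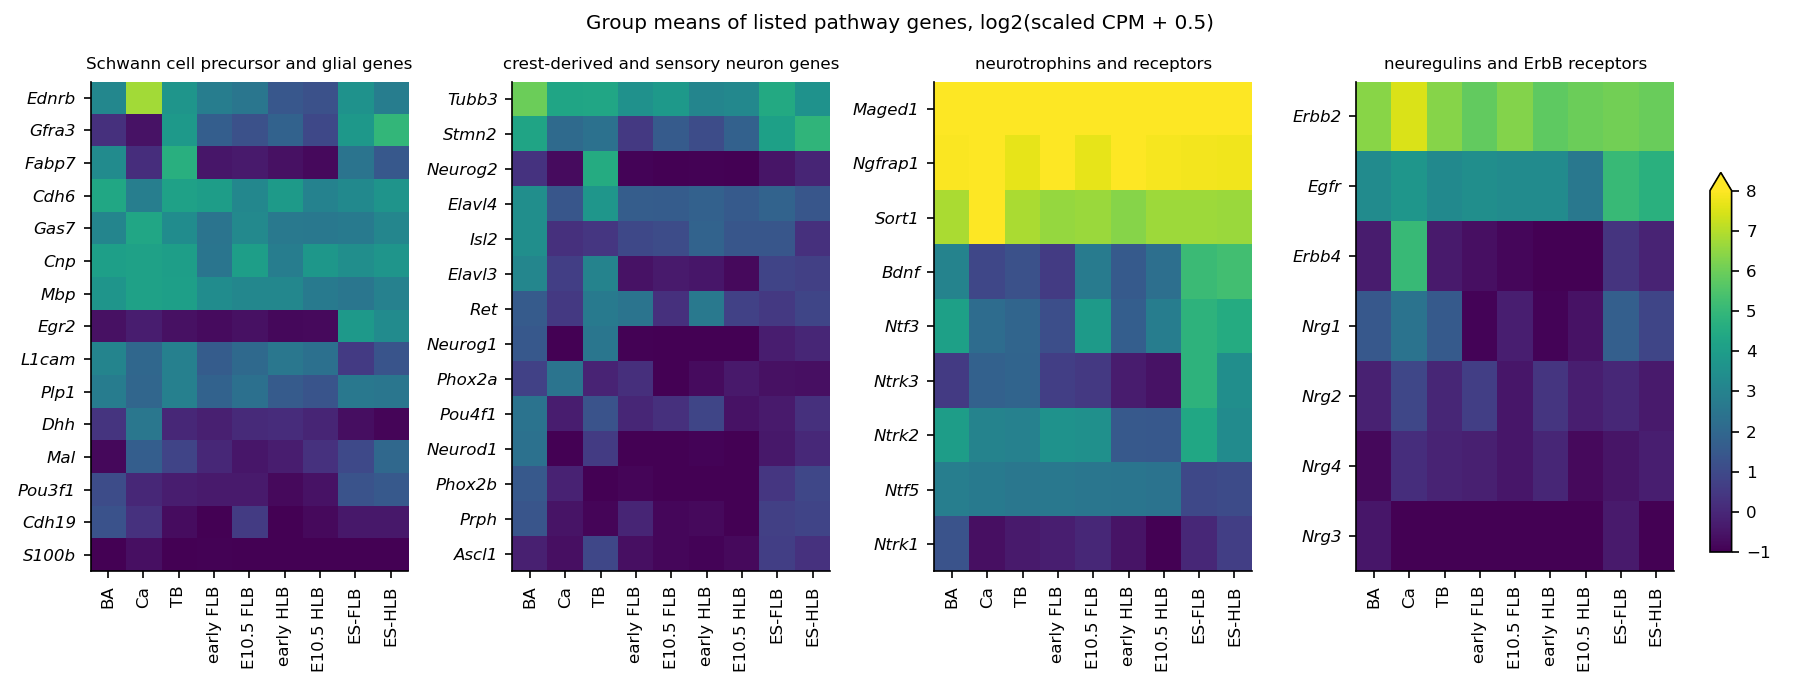
Group means of genes of 4 lists, as log2(scaled CPM + 0.5) (colour, capped at 8), with genes in rows and 9 groups in columns. Egr2, Gfra3, Bdnf and Ntrk3 are bright in the ES-derived columns, Erbb4 and Ednrb in Ca, and Neurog2 and Fabp7 in TB.

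Of the 16 other crest regulators, 4 rose and 7 fell in ES-FLB against early FLB, where 28.5% of all genes were called. In ES-HLB against early HLB 4 rose and 6 fell, where 25% of all genes were called. Pax3 fell, at -3.14 and -1.88 (from 9.23 ± 3.40 to 0.582 ± 0.309 CPM in forelimb), and Mycn, Msx1, Msx2, Pax7 and Tfap2c fell in both. Snai2 and Sox9, factors of crest and mesenchyme, rose in both, by 1.23 and 1.34 and by 1.22 and 1.08, as did Rxrg and Zic1. The 14 surface ectoderm genes summed to between 141 and 210 CPM in ES-FLB and to between 561 and 694 CPM in early FLB, where 10 fell and 1 rose, while Tfap2a differed by -0.07. In ES-HLB they summed to between 298 and 314 CPM, against 502 to 590 CPM in early HLB. The part of the ectoderm genes in the Tfap2a and Tfap2b levels was not tested.

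The genes whose pattern was most like that of each member were found by Pearson's r of log2(CPM + 0.5) over the 26 libraries among 12387 genes that reached 5 CPM in a group mean; the libraries of a group share their tissue, so r is a description. Sox10 and Foxd3 were each other's nearest gene, with r = 0.93. Fhdc1 and Pax9 (both 0.89) followed for Sox10, and Chl1 (0.92), Wnt3a and Spock2 (both 0.91) for Foxd3. All of these genes had their highest group mean in TB, and Foxd3 reached 5 CPM in that group alone. Tfap2a was nearest to Gli2 and Tle3 (both 0.97), Six4 (0.97) and Axin2 (0.96), and Tfap2b to Pvrl4, Wnt10b and 2900011O08Rik (all 0.93). Erbb3 was nearest to Dock8 and Tspan13 (both 0.93), Ngfr to Tfdp1 (0.92) and Ust (0.90), and Ets1 to Atp6ap2 and Tdrd7 (both 0.85). Among the members themselves, after Sox10 with Foxd3, the highest r were 0.64 for Tfap2a with Tfap2b, 0.63 for Tfap2a with Ngfr and 0.62 for Foxd3 with Tfap2b.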

How the data were processed

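RNA from 27 libraries was sequenced as single-end reads of 80 bases from a stranded poly-A kit. Per the submitters' processing notes and the study's methods, reads were mapped with HISAT2 2.0.4 to mm10 and quantified with Cuffdiff on the UCSC gene models of that build, with FastQC 0.11.5, Cufflinks 2.1.1 and edgeR 3.16.2 also named. The authors deposited 1 table of CPM (counts per 1000000 reads), in which each library sums to 1000000. Raw counts were not used, so no count model is a main result.

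CPM values were rescaled by trimmed means of log ratios (30% of ratios and 5% of intensities trimmed, factors 0.904 to 1.07), and a gene was kept if 3 or more libraries held it at 1 CPM or above. log2(CPM + 0.5) was fitted for all 9 groups at once with limma 3.58.1 in R 4.3.3 (trended, robust), with Benjamini-Hochberg adjustment over 14438 genes. Reads per library were estimated from the smallest steps in the values, where 93.7% to 99.1% of low values were whole multiples within 0.02; counting intervals cover counting error only. On simulated data for ES-FLB against early FLB (14460 genes), 200 of 200 genes changed 4-fold were recovered, with 1 false call. The simulation gave every gene the same spread setting and changed no gene of very low level. It does not bear on genes as low as Foxd3 or as variable between libraries as Sox10 in BA. Python 3.11.15, pandas 2.3.3, numpy 2.4.6, scipy 1.17.1 and matplotlib 3.10.9 did the rest.

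The members and the gene lists were chosen with earlier results of these data known. By rule the 7 members were named in every group, with list genes of the highest group mean; other list genes were named after their values were seen. The contrast between the stage changes and the fit without Ca were added after seeing the data. Alternatives were other scalings, pseudocounts, filters, a fit of the compared groups alone, a replicate block, and leaving out each library. Some list genes are not reported here by name.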

Additional observations from a re-analysis of the deposited data

Results flagged for a closer look

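Differences between forelimb and hindlimb effects were tested for the 7 genes, and 3 passed the adjusted p of limma. The hindlimb-minus-forelimb difference of Sox10 was larger in the cultures than in the early limb buds by 1.59 (adjusted p = 0.0257). The same contrast for Ets1 was -0.36 (adjusted p = 0.0137), under 2-fold. The stage change of Tfap2b was larger in the forelimb than in the hindlimb by 2.25 (adjusted p = 0.00959). In that contrast limb type and the longer time between the forelimb stages cannot be told apart. No group held enough libraries for a check of single outlying libraries.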

How the results depend on the processing

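Of 35 called differences of single genes, 24 kept their call in every alternative run and 0 reversed. Over 1944 alternatives for single genes, 1194 of those that kept all libraries and 666 of those that left one out held direction and side of the threshold.

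The number of the 7 genes called moved as follows; the cause was not tested, except where Foxd3 left the fit. With the adjusted p alone, which drops the 2-fold limit, it was 4 for BA against E10.5 FLB, 4 for BA against TB, 3 for ES-FLB against early FLB, 5 for ES-HLB against early HLB, 5 for ES-HLB against E10.5 HLB, 2 for ES-HLB against ES-FLB and 2 for the contrast of cultures with early limb buds, and 1 gene more than in the report for BA against Ca (6), ES-derived against BA (5), ES-FLB against E10.5 FLB (6) and the forelimb stages (5). With only the groups compared it was 1 for BA against E10.5 FLB, 1 for BA against TB, 1 for E10.5 HLB against E10.5 FLB and 2 for the difference in stage change. It was also 4 for BA against Ca, 3 for ES-derived against BA, 4 for ES-FLB against E10.5 FLB and 3 for the forelimb stages; in these and in E10.5 HLB against E10.5 FLB, Foxd3 did not pass the filter on low values. With a pseudocount of 0.1 it was 3 for ES-HLB against early HLB, 1 for the hindlimb stages, 2 for early HLB against early FLB and 0 for ES-HLB against ES-FLB. With a pseudocount of 1 it was 3 for ES-FLB against E10.5 FLB, 3 for the forelimb stages, 1 for E10.5 HLB against E10.5 FLB and 0 for the contrast of cultures. With E10.5 HLB replicate 2 kept it was 2 for ES-HLB against early HLB and 3 for the difference in stage change, which also gave 2 with CPM as deposited, 2 with a filter of 5 CPM and 3 without Ca.

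Over all groups pooled, same-numbered libraries showed little common deviation (r from -0.0888 to 0.126 over 100 pairs, median 0.0165, against -0.00985 for other numbers). These pairs include different stages and embryos against cultures, which cannot share an embryo. Whether same-numbered tissues of 1 stage came from the same embryos was not tested. With a replicate block 1 gene was called for the hindlimb stages, where the rise of Tfap2b was 1.14 (adjusted p = 0.0583), and 3 for the difference in stage change.

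Leaving out 1 library at a time gave counts of 1 to 3 (BA against E10.5 FLB), 5 to 5 (BA against Ca), 1 to 3 (BA against TB), 4 to 4 (ES-derived against BA), 1 to 1 (ES-FLB against early FLB), 1 to 2 (ES-HLB against early HLB), 4 to 5 (ES-FLB against E10.5 FLB), 2 to 4 (ES-HLB against E10.5 HLB), 4 to 4 (forelimb stages), 1 to 2 (hindlimb stages), 0 to 1 (early HLB against early FLB), 1 to 2 (E10.5 HLB against E10.5 FLB), 0 to 0 (ES-HLB against ES-FLB), 0 to 1 (cultures against early limb buds) and 1 to 2 (difference in stage change).

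Signs turned only for differences near 0 that were not called. With CPM as deposited, Tfap2a in ES-FLB against early FLB was 0.15 and Tfap2b in ES-HLB against early HLB was 0.13. With 1 library left out, Tfap2b ran from -0.17 to 0.024 in BA against E10.5 FLB and from -0.25 to 0.16 in ES-HLB against early HLB. Tfap2a ran from -0.13 to 0.0040 in ES-FLB against early FLB, from -0.011 to 0.091 between forelimb stages and from -0.029 to 0.059 in early HLB against early FLB. Ngfr ran from -0.16 to 0.095 in E10.5 HLB against E10.5 FLB and from -0.12 to 0.18 in the contrast of cultures, and Ets1 from -0.069 to 0.17 in the difference in stage change. The planned count tests on estimated reads were not run. Depth limits Foxd3 and Sox10 most, since a library's 3-read floor reaches 0.543 CPM.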

Other observations

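Replicate 2 of E10.5 HLB entered no comparison of the report. Scaled together with the other libraries, it held Tfap2a at 18.4 CPM, Tfap2b at 25.3 CPM, Erbb3 at 9.57 CPM and Ngfr at 14.3 CPM, and Sox10 and Foxd3 at 0. The other E10.5 HLB libraries held Tfap2a at 16.4 and 15.4 CPM, Tfap2b at 25.9 and 31.6 CPM, Erbb3 at 10.47 and 10.2 CPM and Ngfr at 12.7 and 15.0 CPM. Ets1 lies in a stretch for which that library has no values.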
